A study of Mus musculus with 12 samples.

Results

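Hearts of mice with 1 deleted copy of the cardiac homeobox gene Nkx2-5 were compared with hearts of mice in which 1 copy encodes the I183M protein, whose isoleucine at residue 183 is replaced by methionine. The comparison takes its 6 arrays from sample titles, 3 of Nkx2-5 delta/+ and 3 of Nkx2-5 I183M/+, out of 12 single-colour Agilent arrays in the series. Each array was hybridised with total RNA from the apex of the heart of male C57BL/6J mice aged 15 weeks. The other arrays are 3 of Nkx2-5 I183P/+, in which the same residue becomes proline, and 3 of Nkx2-5 control/+, a line that went through the same targeting but keeps isoleucine. All 4 groups carry 1 unmodified allele, so every heart still has a normal copy of the gene. No label ties an array to an animal of its own, and p-values therefore measure the spread between these samples, which may be technical.

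Nkx2-5 is a transcription factor of the NK2 class that helps to form the heart and, in the adult, keeps up genes of muscle contraction, conduction and natriuretic peptides. Its homeodomain binds short elements that contain the letters AAGTG, usually written TNAAGTG. Isoleucine 183 lies in that homeodomain. Carriers of a single intact copy, in mice and in people, can have septal defects and slow atrioventricular conduction. A deletion lowers the amount of factor, whereas a substitution leaves a second protein in the cell beside the normal one, and the comparison sets these 2 kinds of allele side by side.

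Levels are given as the log2 of the processed intensity minus the 75th percentile of the same array, and a difference is delta/+ minus I183M/+ on that log2 scale. The fit used limma on 11 arrays, with control replicate 1 left out because 98.8% of its spots were well above background, against 51.0% to 75.1% on the others. The other I183P/+ and control/+ arrays enter only the estimate of the spread. I183M/+ replicate 1 (72.6%) and delta/+ replicate 2 (75.1%) stood above the other arrays of the comparison by the same measure. No array of the series had a saturated spot. The 3 I183M/+ arrays lay on slide 1 and the 3 delta/+ arrays on slide 2, and the time of scanning split the same way, so genotype and slide cannot be told apart in these 6 arrays. Only I183P/+ lay on both slides, with replicates 1 and 2 on slide 1 and replicate 3 on slide 2, and values with the slide as a term rest on that 1 array. The tissue label was borne out by 16 of 16 ventricular muscle markers, all well above background on the 6 arrays, with a median difference of 0.00.

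Nkx2-5 itself was lower in delta/+ hearts. Its single probe read 4.74, 4.83 and 4.77 on the I183M/+ arrays and 3.98, 3.97 and 4.14 on the delta/+ arrays. The groups did not overlap, and the highest delta/+ array lay below every array of the other lines, which read 4.96, 4.76 and 4.72 in I183P/+ and 4.68 and 4.78 in control/+. The difference was -0.75 (SE 0.098, 95% interval -0.97 to -0.53, n = 3 against 3), a delta/+ level 0.594 of that in I183M/+, with an adjusted p of 0.0386 in the limma fit. An exact two-sided permutation test over the 6 arrays gave p = 0.1, the smallest that 20 arrangements allow. With the slide as a term the difference was -0.61 and the adjusted p 0.426. Where the probe lies relative to the deleted part is not given in the sources used here.

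**Figure D1:**
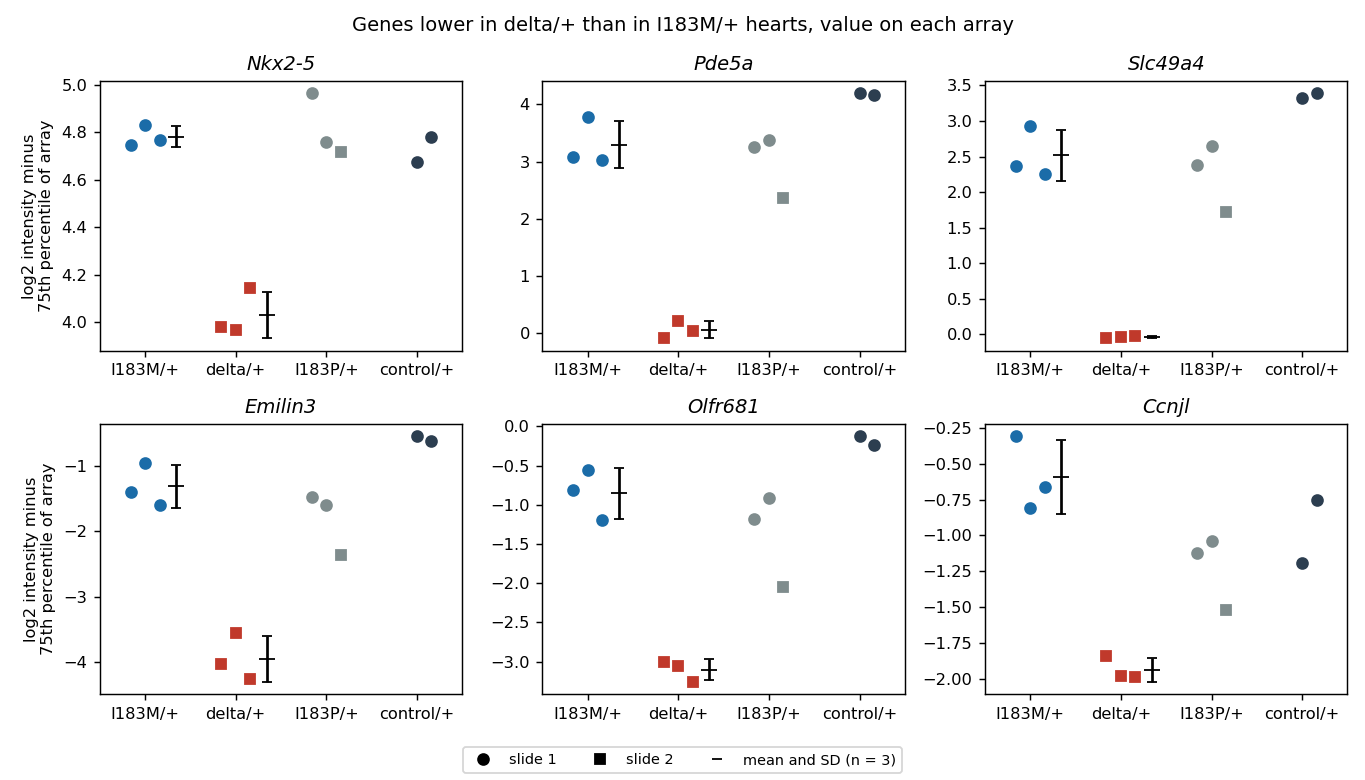
Level of 6 genes on each of 11 arrays, as log2 intensity minus the 75th percentile of the array, by genotype. Circles are arrays of slide 1, squares arrays of slide 2, and the black marks give the mean and SD of the 3 arrays of I183M/+ and of delta/+. Nkx2-5 sits between 3.97 and 4.14 in delta/+ and between 4.74 and 4.83 in I183M/+. In Pde5a, Slc49a4, Emilin3 and Olfr681, control/+ is highest, the I183P/+ array of slide 2 lowest among the other lines, and delta/+ below all of them.

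Across the transcriptome, 45 of 29293 features tested passed an adjusted p of 0.05 (0.154%), 23 higher (0.0785%) and 22 lower (0.0751%) in delta/+. The median difference over all features was 0.00, and 3888 features had an unadjusted p under 0.05. Of the features tested 15348 have a gene symbol. Among the 22 that fell, 10 have a symbol, and among the 23 that rose, none has. The 3 delta/+ arrays lay above the 3 I183M/+ arrays for 3456 features (11.8%) and below them for 2072 (7.07%). Another scaling moved the balance of directions: with each array's median in place of its 75th percentile 38 features were higher and 17 lower, and with normexp background correction and quantile normalization 100 were higher and 46 lower. The count was 0 with the 6 arrays fitted alone, with the slide as a term, and when I183M/+ replicate 2, I183M/+ replicate 3, delta/+ replicate 1 or delta/+ replicate 3 was left out, with 2162 to 3883 features at an unadjusted p under 0.05 in these fits. It was 21 without I183M/+ replicate 1 and 13 without delta/+ replicate 2.

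**Figure D2:**
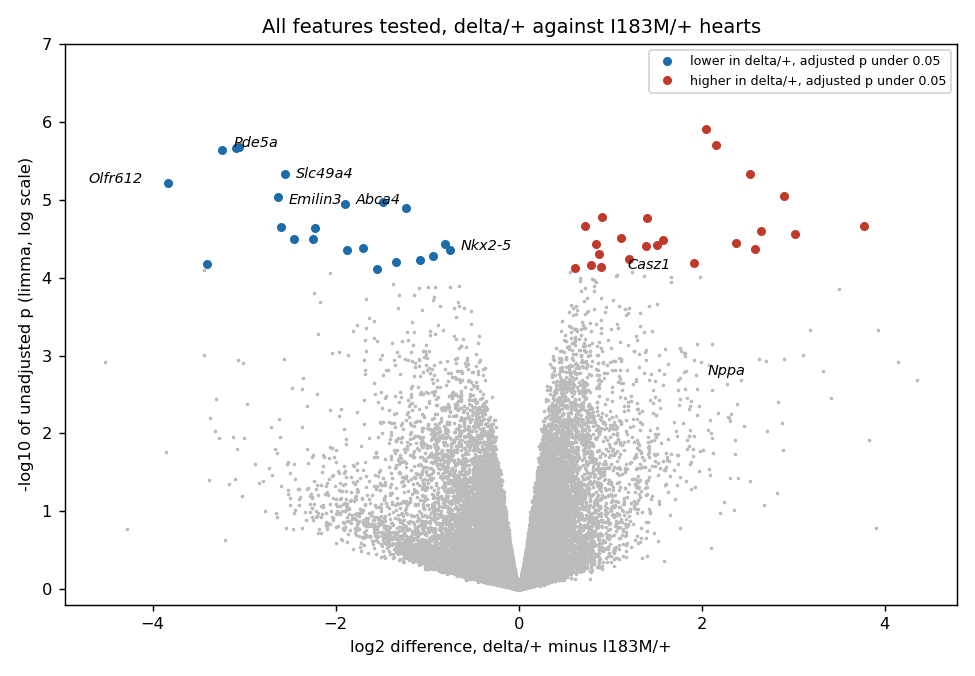
Every feature tested, with the log2 difference delta/+ minus I183M/+ on the x axis and the -log10 of the unadjusted limma p on the y axis. Blue points passed the adjusted threshold and were lower in delta/+ (22 features), red points passed and were higher (23 features). Pde5a, Slc49a4, Olfr612, Emilin3, Abca4 and Nkx2-5 are among the blue points, while Casz1 and Nppa lie in the grey cloud of features that did not pass.

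The largest fall among features well above background on all 6 arrays was that of Pde5a, whose enzyme degrades cyclic GMP and is blocked by sildenafil. It read 3.09, 3.77 and 3.03 in I183M/+ and -0.08, 0.22 and 0.04 in delta/+, a difference of -3.24 (SE 0.289, adjusted p 0.0135 in limma), or a level 9.44 times higher in I183M/+. The I183P/+ arrays read 3.26, 3.38 and 2.37 and the control/+ arrays 4.19 and 4.17, so delta/+ stood below all 8 other arrays. The array of slide 2 was the lowest of the 3 I183P/+ arrays, and with the slide as a term the difference shrank to -2.28 (adjusted p 0.272). After normexp correction and quantile normalization it was -3.02 (adjusted p 0.00365).

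Slc49a4, a lysosomal membrane transporter, followed the same course. It read 2.37, 2.93 and 2.26 in I183M/+ and -0.06, -0.04 and -0.03 in delta/+, a difference of -2.56 (SE 0.25, adjusted p 0.0197). Emilin3, a secreted glycoprotein of the matrix, was lower by a log2 difference of -2.64 (SE 0.28, adjusted p 0.027), going from between -1.60 and -0.95 to between -4.26 and -3.56. Olfr681, an olfactory receptor gene, fell by 2.25 (SE 0.281, adjusted p 0.0384), and Lcn6, a lipocalin known from the epididymis, by 1.55 (SE 0.218, adjusted p 0.0497). With normexp and quantile normalization the differences of Emilin3 and Olfr681 were -1.44 and -1.41, still past the threshold (adjusted p 0.0111 and 0.019), and that of Lcn6 was -0.91, no longer past it (adjusted p 0.0522). A second Lcn6 probe differed by only -0.29, and a second Olfr681 probe, well above background on 3 of the 6 arrays, by -1.61.

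These genes lie on chromosomes 3, 16, 2, 7 and 2, and their levels went together also on arrays other than those of delta/+. Over the 8 arrays of the other 3 lines, the Pearson correlation with Pde5a was 0.994 for Slc49a4, 0.974 for Emilin3, 0.962 for Olfr681 and 0.96 for Lcn6. Of the 21 other features that fell, 10 reached a correlation of 0.95, a threshold chosen after the values were seen, against 27 of 29292 features in all (0.0922%) and 0 of the 23 that rose. In these 5 genes control/+ was highest, I183M/+ replicate 2 next, and the I183P/+ array of slide 2 lowest, while the arrays between them changed places. The points share arrays, slides and control samples, and whether these probes read separate RNAs was not tested, since probe sequences are not used here. The correlation was -0.02 for Nkx2-5, 0.20 for Ccnjl and 0.12 for Shpk.

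Of the other genes that fell, Abca4, a lipid flippase best known from photoreceptors, was well above background on all 3 I183M/+ arrays and on none of the delta/+ arrays. It was 3.72-fold lower in delta/+ by the plain ratio (adjusted p 0.0279). It was as low in I183P/+, at -4.88, -5.24 and -4.85, while control/+ read -2.23 and -1.79. Olfr612, an olfactory receptor gene, was at least 9.41-fold lower (adjusted p 0.022), also with no delta/+ array well above background. These bounds set the mean of the bright group against the higher, per array, of the dim probe's own value and the lowest signal well above background. With normexp and quantile normalization the differences were -0.64 for Abca4 (adjusted p 0.0783) and -1.04 for Olfr612 (adjusted p 0.056). Both were smaller than these folds and no longer past the threshold. A second Olfr612 probe, well above background on 2 of 6 arrays, differed by -0.19.

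Ccnjl, a cyclin-like gene, read -0.31, -0.81 and -0.66 in I183M/+ and -1.84, -1.98 and -1.99 in delta/+, a fall of 1.35 (SE 0.184, adjusted p 0.0469). Shpk, the sedoheptulose kinase that feeds the pentose phosphate pathway, fell by 0.81 (SE 0.103, adjusted p 0.0384), with all delta/+ arrays below every other array. With normexp and quantile normalization the Shpk difference was -0.33 and its adjusted p 0.319, whereas Ccnjl stayed past the threshold at -1.07 (adjusted p 0.0237). The next genes in this direction, 3930402G23Rik (-2.06, adjusted p 0.0516) and Dipk1b (-0.65, adjusted p 0.0584), did not pass.

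No gene with a symbol passed limma's adjusted threshold in the other direction, although 934 had an unadjusted p under 0.05. The 12 with the smallest p whose groups did not overlap had adjusted p-values from 0.0531 to 0.0959. Casz1, a zinc finger factor needed for heart development, read 1.73, 1.31 and 1.66 in I183M/+ and 2.67, 2.60 and 2.62 in delta/+, a difference of 1.07 (SE 0.154, adjusted p 0.0531). Its 3 other probes gave -0.12, -0.30 and -0.54, so the sign of the gene depends on the probe. The difference of Lepr, the leptin receptor, was 1.098 on the brightest probe (adjusted p 0.0757) and -0.21, -0.35 and -1.65 on the others. The 2 probes of Gvin1, an interferon-inducible very large GTPase, gave 0.85 and 0.89 (adjusted p 0.0559 for the first).

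For several of these genes delta/+ resembled I183P/+ more than I183M/+ did. Efr3b, which anchors a phosphatidylinositol kinase at the plasma membrane, read 1.66, 1.67 and 1.76 in I183M/+, 2.33, 2.41 and 2.76 in delta/+ and 2.60, 2.55 and 2.65 in I183P/+. Control/+ stood with I183M/+, at 1.54 and 1.62. Apol10b, an apolipoprotein L gene, had the same split, with I183M/+ between -1.28 and -0.57, delta/+ between 0.15 and 0.56, I183P/+ at 0.44, 0.34 and 0.56, and control/+ at -1.30 and -0.89. The I183P/+ arrays stood high on both slides, replicates 1 and 2 beside the control/+ and I183M/+ arrays of slide 1. A different picture held for Papola, a poly(A) polymerase (0.83, adjusted p 0.0544), Pkib, an inhibitor of protein kinase A (0.78, adjusted p 0.0934), and Serpinb6d, a serine protease inhibitor (1.33, adjusted p 0.0959). In these 3 genes delta/+ lay above all 8 other arrays. With the slide as a term the difference was 0.99 for Papola, 0.30 for Pkib and 0.52 for Serpinb6d.

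The features that rose carry accessions, region names or only a probe identifier. The transcript ENSMUST00000099683 had 2 probes among them. The first read -1.09, -1.20 and -1.96 in I183M/+ and 2.25, 2.48 and 2.34 in delta/+, a difference of 3.78 (adjusted p 0.0351), and the second differed by 2.90 (adjusted p 0.027). A pair of overlapping regions of chromosome 12 in the array's mm9 layout, chr12:82495575-82516300 and chr12:82500406-82501102 (both on the forward strand), rose by 2.05 and 1.39 (adjusted p 0.0135 and 0.0384). Both had delta/+ above all 8 other arrays. Among the regions that fell were chr13:70745633-70776516, by 3.06, and chr15:92197603-92208534, by 3.09, each with an adjusted p of 0.0135. They carry the reverse and forward strand in their names. Their levels went with those of Pde5a, with correlations of 0.991 and 0.997 over the 8 arrays outside delta/+. In all, 20 of the 23 features that rose and 18 of the 22 that fell were well above background on all 6 arrays.

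The I183P/+ arrays give a partial view of the slide. Among the 22 features that fell, the I183P/+ array of slide 2 lay below both others of its line for 15 (68.2%), against 39.3% of all features. Among the 23 that rose, it lay above both others for 13 (56.5%), against 37.9% of all features. The part of the slide in these differences was not tested beyond the term for it. The direction held for all 45 with the slide as a term: the median went from -2.06 to -1.496 for those that fell and from 1.51 to 0.99 for those that rose. On slide 2 alone, the 3 delta/+ arrays lay below the I183P/+ array for 20 of 22 features, against 18.5% of all features, and above it for 23 of 23, against 36%. Delta/+ lay below all 8 other arrays for 20 of the 22, against 2.47% of all, and above all 8 for 23 of the 23, against 4.32%. The 45 features were chosen on the difference between delta/+ and I183M/+, so these counts and the I183M/+ counts that follow are descriptions. I183M/+ lay above all I183P/+ and control/+ arrays for 3 of the 22 (13.6%), against 9% of all features. It lay below them all for 5 of the 23 (21.7%), against 1.49%.

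**Figure D3:**
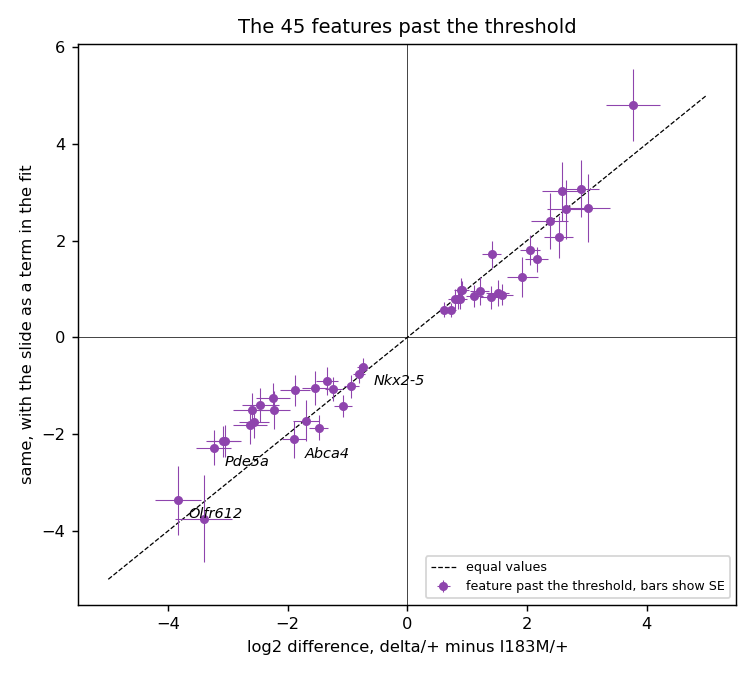
The 45 features that passed the threshold, with the log2 difference delta/+ minus I183M/+ on the x axis and the same difference with the slide as a term on the y axis. Bars give 1 SE on each axis and the dashed line marks equal values. All 45 points keep their sign, and the median moves from -2.06 to -1.496 for those lower in delta/+.

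Promoters in the RefSeq table (GRCm38.p6, 250 bases before and 50 after the start) were read for the letters TNAAGTG and their reverse complement CACTTNA, since the 2 alleles alter the factor that binds this element. Either form occurred in 11.5% of 32851 promoters. It occurred in 1 of 11 named genes lower in delta/+, Shpk, and in 1 of 10 higher, Pkib, against 13.1% of 27025 genes. Of 3 further genes described next, the natriuretic peptide gene Nppa and the myosin gene Myh7 hold a match as well. The natriuretic peptide gene Nppb holds none. Each window below is 60 bases of the promoter's own strand, 5′ to 3′, with the match in capitals. The matches lie 18, 216, 241 and 177 bases before the start of Shpk, Pkib, Nppa and Myh7. A second Pkib promoter holds a match of its own, 147 bases before its start and not printed, and 1 of the 2 Myh7 promoters holds none. The windows are chr11:73199422-73199481 for Shpk, chr10:57631739-57631798 for Pkib, chr4:148000472-148000531 for Nppa and chr14:54994770-54994829 for Myh7.
Shpk: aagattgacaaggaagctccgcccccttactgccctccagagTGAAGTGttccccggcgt
Pkib: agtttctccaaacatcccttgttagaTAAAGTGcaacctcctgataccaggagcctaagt
Nppa: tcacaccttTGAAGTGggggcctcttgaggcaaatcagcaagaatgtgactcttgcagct
Myh7: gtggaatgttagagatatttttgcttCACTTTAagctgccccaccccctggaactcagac
The promoter of Pde5a, the gene with the largest fall on well measured arrays, is printed for the 250 bases before its start, on the plus strand of chromosome 3. It holds neither form, which says only that these letters are not in this window.
Pde5a: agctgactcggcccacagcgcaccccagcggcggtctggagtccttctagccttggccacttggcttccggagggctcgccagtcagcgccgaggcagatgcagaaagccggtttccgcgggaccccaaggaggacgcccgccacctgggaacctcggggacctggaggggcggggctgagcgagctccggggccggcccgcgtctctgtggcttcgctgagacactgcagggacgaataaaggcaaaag
A match is a description of the letters and not a binding site.

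Natriuretic peptides and their cyclic GMP pathway were the first of 40 lists of genes described, of which 786 of 861 symbols were measured. Of 23 pathway genes measured, Pde5a fell and none rose, and the median difference was 0.00. Nppa, which encodes atrial natriuretic peptide and is a textbook target of Nkx2-5, read 5.55, 4.19 and 4.47 in I183M/+ and 7.38, 5.94 and 6.72 in delta/+. The groups did not overlap, but the arrays of each group spread over more than 1 log2 unit, and the difference of 1.94 (SE 0.434) had an adjusted p of 0.126. Control/+ stood with delta/+ here, at 6.91 and 6.76, while I183P/+, at 6.03, 5.45 and 5.37, had 1 array within the range of delta/+ and 2 within that of I183M/+. Nppb, which encodes the B-type peptide, read 5.02, 2.19 and 2.25 in I183M/+ and 4.69, 4.84 and 6.15 in delta/+, so that 1 I183M/+ array overlapped delta/+ (2.08, adjusted p 0.305). Control/+, at 5.6 and 5.4, lay within the range of delta/+ for Nppb too, while I183P/+ read 2.55, 2.48 and 3.90. The peptide receptors Npr2 and Npr3 differed by -0.06 and 0.08, the convertase Corin by -0.10, and the soluble guanylate cyclase subunits Gucy1a1 and Gucy1b1 by 0.17 and 0.15. Pde1c, a phosphodiesterase of both cyclic nucleotides, differed by -0.62 without overlap (adjusted p 0.211).

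The fetal and stress genes that a loaded ventricle switches on had a median difference of 0.22 over 20 members, and none passed. At an unadjusted p under 0.05, 3 were higher, against 934 of all 15348 genes with a symbol. Myh7, the slow beta myosin heavy chain, read 6.25, 4.92 and 5.70 in I183M/+ and 6.51, 6.56 and 8.44 in delta/+, a difference of 1.55 (SE 0.584, adjusted p 0.302). Myh6, the fast alpha chain of the adult mouse ventricle, differed by 0.04 on its brightest probe and by 0.68 on its second. Skeletal alpha actin, Acta1, differed by 0.85 and Ankrd1, a strain-responsive repeat protein, by 0.65, both with overlapping groups. Delta/+ replicate 3 had the highest value of the 6 arrays for Nppb, Myh7, Acta1 and Ankrd1.

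Atrial muscle genes varied within every line, and their values stand beside those of Nppa because atrial tissue carries much of that peptide's transcript. Myl7, the atrial regulatory light chain, read 2.27, 0.62 and 1.37 in I183M/+ and 4.34, 0.11 and 2.15 in delta/+. In I183P/+ it read 2.85, 2.84 and -4.85 and in control/+ -3.95 and 2.59. Sln, the atrial inhibitor of the calcium pump, and Myl4, the atrial essential light chain, moved with Myl7 from array to array. Over the 15 atrial genes measured, the summed level ranged from 65.0 to 116 in I183M/+ and from 96.9 to 387 in delta/+, on the linear scale relative to the 75th percentile. Delta/+ replicate 2 had the lowest Myl7 (0.11) and the lowest Nppa (5.94) of its line. The array with the lowest Myl7 also had the lowest Nppa in I183M/+ (0.62 and 4.19) and in I183P/+ (-4.85 and 5.37). Control/+ went the other way: the array with the lower Myl7 (-3.95) had the higher Nppa (6.91, against 6.76). The part of atrial tissue in the Nppa difference was not tested. The I183P/+ array of slide 2 had the lowest Myl7 of 11, so values of atrial genes with the slide as a term, 8.48 for Myl7, follow that array.

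**Figure D4:**
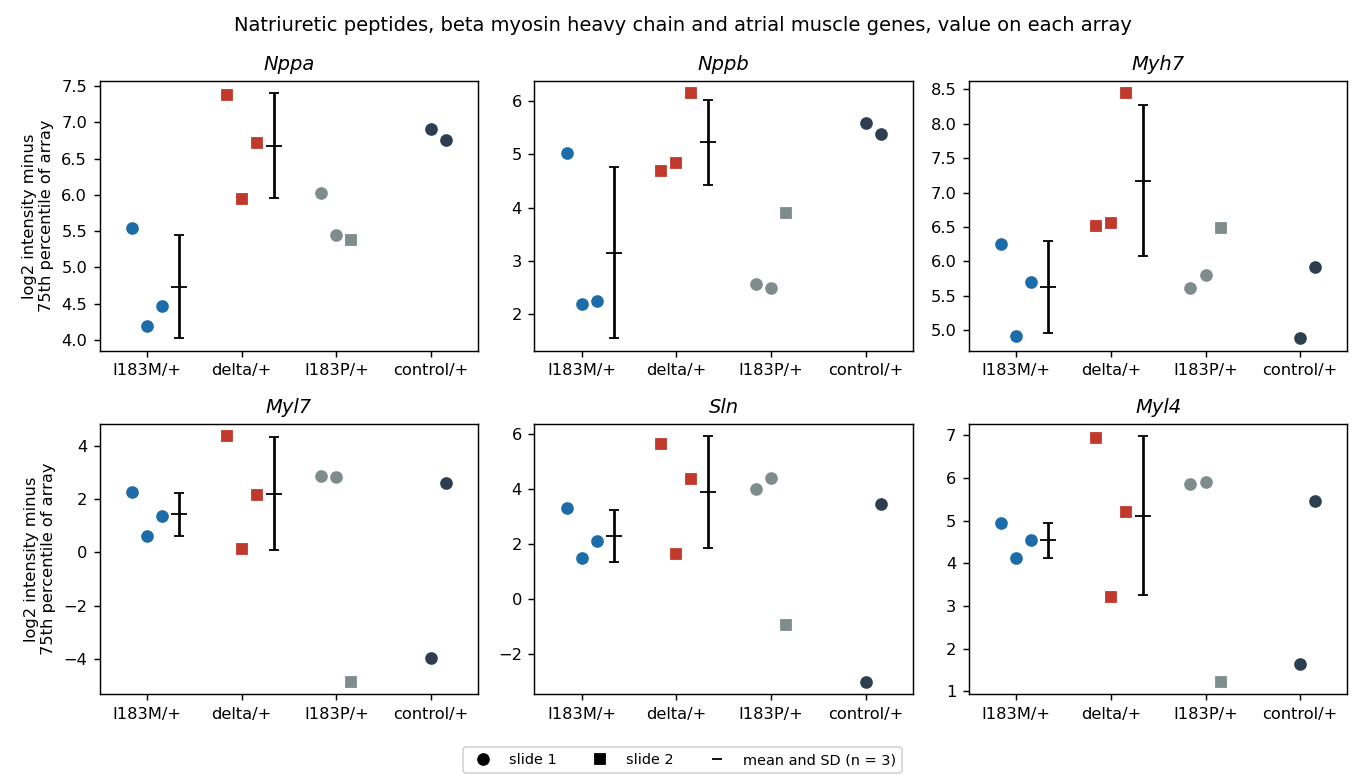
Level of Nppa, Nppb, Myh7 and the atrial muscle genes Myl7, Sln and Myl4 on each of 11 arrays, as log2 intensity minus the 75th percentile of the array, by genotype. Circles are arrays of slide 1 and squares of slide 2, with mean and SD of the 3 arrays of I183M/+ and delta/+ in black. Nppa does not overlap between delta/+ (5.94 to 7.38) and I183M/+ (4.19 to 5.55), while Myl7 overlaps and falls to -4.85 on one I183P/+ array.

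Nkx2-5 was the only one of 27 cardiac transcription factors measured that passed, and the median of the list was -0.13. Its partners Gata4 and Tbx20 differed by -0.02 and 0.07. Gata6 read 3.66, 3.99 and 3.96 in I183M/+ and 3.46, 3.48 and 2.32 in delta/+, a difference of -0.78 (adjusted p 0.309). Hand2, a basic helix-loop-helix factor of the right ventricle, differed by -0.77 (adjusted p 0.315) and Zfpm2, the cofactor FOG2, by -0.44 (adjusted p 0.285). Tbx18 went the other way, by 0.44 with overlap (adjusted p 0.285). Of the 27 factors, 12 were above 0 and 15 below, with 1 above (3.70%) and 4 below (14.8%) without overlap. The shares of all features were 11.8% and 7.07%. In Gata6, Hand2 and Zfpm2 the groups did not overlap, and delta/+ replicate 3 was the lowest of the 6 arrays. With the slide as a term the median of the list was 0.08, so its sign depends on that term.

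Genes of conduction and of ion channels did not pass in this comparison of 2 lines that each keep 1 unmodified allele. Of 23 potassium channel genes measured, 17 were below 0 and the median was -0.14, with 3 lower at an unadjusted p under 0.05 and none higher. Among all 15348 genes with a symbol, 794 were lower and 934 higher at that limit. Kcne4, an accessory subunit that restrains potassium channels, read -1.68, -1.89 and -2.24 in I183M/+ and -3.12, -2.72 and -2.66 in delta/+ (difference -0.89, adjusted p 0.142). Kcnh2, the channel of the rapid delayed rectifier current, differed by -0.52 without overlap (adjusted p 0.225). Among 14 sodium channel genes the median was 0.13. Scn10a differed by -0.92 (adjusted p 0.24) and the accessory subunit Scn4b by 0.55 (adjusted p 0.254), both without overlap. The connexin genes Gja1 and Gja5 differed by -0.02 and 0.08. Over 19 conduction and gap junction genes the median was -0.02, and 0.24 with the slide as a term.

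The receptors and enzymes of adrenergic signalling also stayed within the threshold, with medians of -0.08 over 17 receptor genes and -0.04 over 20 phosphodiesterases and cyclases of cyclic AMP. Grk2, the kinase that desensitises beta receptors, differed by 0.28 (SE 0.0754, adjusted p 0.177), and Adra1b, an alpha receptor, by -0.51 (adjusted p 0.231), both without overlap. With the slide as a term the Adra1b difference was -0.01. Adra2b went from 0.56 to -0.04, Pde4c from 0.42 to -0.09 and Adcy5, the main cardiac adenylyl cyclase, from -0.27 to 0.04, so their directions depend on the slide term.

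Lists of contraction and energy supply had medians near 0, with single members to either side. The median was 0.05 over 42 sarcomere and Z-disc genes, -0.04 over 24 genes of calcium cycling, 0.03 over 64 of oxidative phosphorylation, -0.01 over 39 of fatty acid use and -0.02 over 31 of glycolysis. None of these genes passed. The groups did not overlap for 8 of the 42 sarcomere genes, 5 higher (11.9%) and 3 lower (7.14%). These shares were near those of all features, 11.8% and 7.07%. At an unadjusted p under 0.05, 4 sarcomere genes were higher and 3 lower, and 3 of oxidative phosphorylation were higher and 2 lower. Among all 15348 genes with a symbol, 934 were higher and 794 lower at that limit. Myh7b, an ancient slow myosin, read 6.62, 6.59 and 6.71 in I183M/+ and 7.16, 7.07 and 7.59 in delta/+ (0.63, SE 0.136, adjusted p 0.121). Smyd1, a methyltransferase needed for sarcomere assembly, differed by 0.57 (adjusted p 0.124). Atp5c1, a subunit of ATP synthase, differed by 0.48 (SE 0.0951, adjusted p 0.115), and phospholamban, Pln, by -0.22 (adjusted p 0.342). Delta/+ lay above I183M/+ without overlap in 11 of 64 oxidative phosphorylation genes (17.2%) and in 11 of 48 cytosolic ribosomal protein genes (22.9%), whose median was 0.07, against 11.8% of all features. For both lists the median with the slide as a term was larger, at 0.26 and 0.25.

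Signalling pathways of heart development had medians near 0 and no member that passed: -0.00 over 21 Notch genes, -0.01 over 28 of BMP and TGF-beta signalling and -0.04 over 27 Wnt genes. Delta/+ lay above without overlap in 3 Notch genes (14.3%), 6 of BMP and TGF-beta signalling (21.4%) and 3 Wnt genes (11.1%). It lay below in 3 (14.3%), 1 (3.57%) and 1 (3.70%). Over all features the shares were 11.8% above and 7.07% below. Those below included Hey2, a Notch target of the ventricle (-0.94, adjusted p 0.221), Fzd4, a Wnt receptor (-0.46, adjusted p 0.167), and Smad3, a TGF-beta effector (-0.46, adjusted p 0.199). Those above included Nog, a BMP antagonist (0.66, adjusted p 0.192), Heyl of the Notch list (0.54, adjusted p 0.210) and Rspo1 of the Wnt list (0.87, adjusted p 0.203). Collagens and matrix genes had a median of -0.15 over 35 members, of which Emilin3 fell. Per1, a clock gene, read 4.14, 4.72 and 4.20 in I183M/+ and 3.46, 3.54 and 2.81 in delta/+ (-1.08, adjusted p 0.221). The median of the 18 clock genes was -0.07. Heat shock genes had a median of 0.15 over 20 members. Delta/+ lay above without overlap in 2 of them (10%, against 11.8% of all features), Hspb1 (0.60) and Bag3 (0.34). Immediate early genes had a median of 0.19 over 21, with Jund at 0.44 (adjusted p 0.165). The median of 25 cell cycle genes was -0.01.

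Interferon response genes, which defend cells against viruses and are switched on by interferons, lay mostly to one side. Of 39 measured, 37 were above 0, 25 (64.1%, against 11.8% of all features) had all delta/+ arrays above all I183M/+ arrays and none the reverse, and the median difference was 0.34. None passed limma's adjusted threshold, and 22 were higher at an unadjusted p under 0.05, against 934 of all 15348 genes with a symbol. Ifit1, which binds foreign RNA, read -1.33, -1.48 and -1.56 in I183M/+ and -0.71, -0.87 and -0.77 in delta/+ (0.68, SE 0.123, adjusted p 0.0969). Gbp7, a guanylate-binding protein, differed by 0.60 (adjusted p 0.117), Gbp4 by 1.101 (adjusted p 0.126) and the chemokine Cxcl10 by 1.53 (adjusted p 0.164), each without overlap. Irf7, a factor that amplifies the response, was 1 of 2 members below 0, at -0.07.

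The other lines fell on either side in this list. Each array's median over the list, relative to each gene's mean, was -0.29, -0.14 and -0.23 in I183M/+ and 0.27, -0.02 and 0.16 in delta/+. It was 0.15, 0.13 and 0.35 in I183P/+ and -0.23 and -0.13 in control/+. I183M/+ therefore stood with control/+, and delta/+ replicates 1 and 3 with I183P/+, while delta/+ replicate 2, at -0.02, lay between. The I183P/+ arrays of slide 1 were also above the I183M/+ arrays of that slide. The I183P/+ array of slide 2 exceeded the mean of its 2 partners by a median of 0.26, and with the slide as a term the median difference was 0.21.

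**Figure D5:**
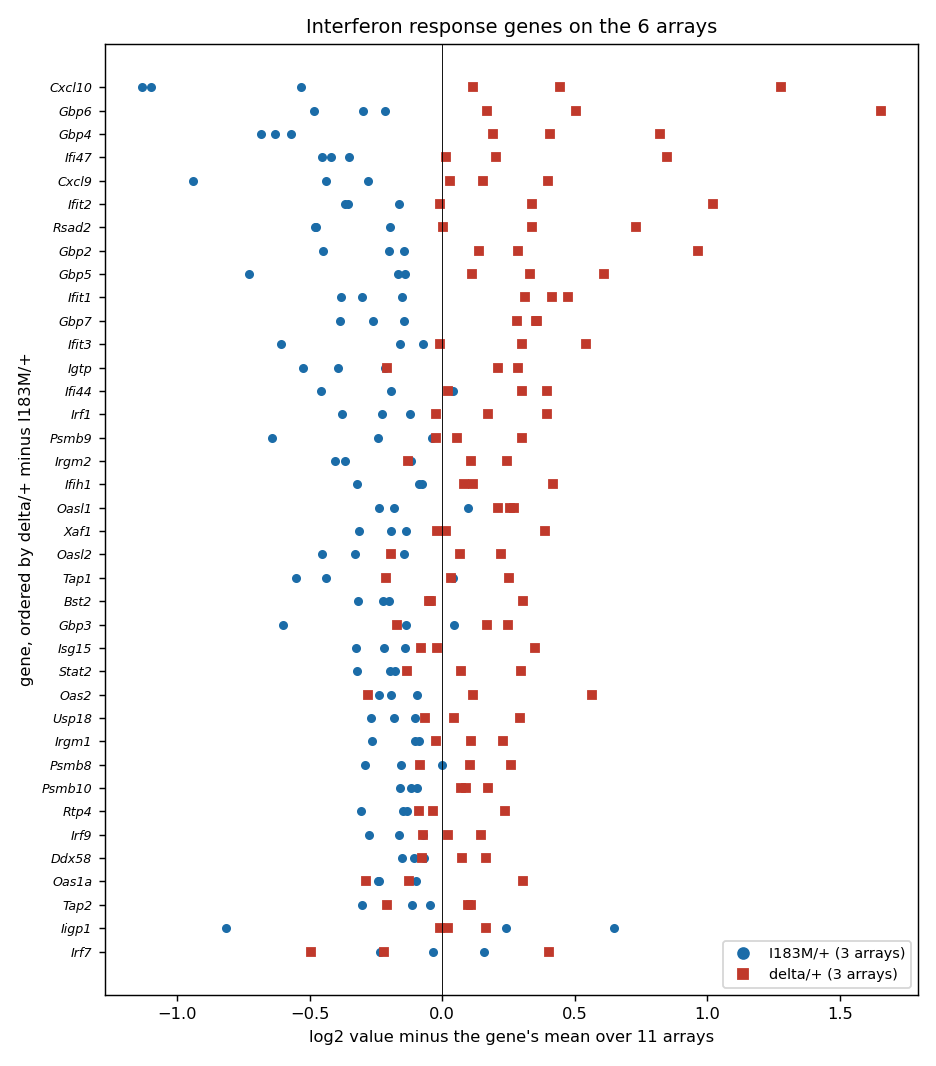
Interferon response genes (38 of the 39 measured), ordered by delta/+ minus I183M/+, with the log2 value on each of the 6 arrays minus the gene's mean over 11 arrays on the x axis. Circles are I183M/+ and squares delta/+ arrays. All delta/+ arrays lie above all I183M/+ arrays in 25 genes, and no gene shows the reverse.

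Markers of other cell types were read in the same way, and none passed the test. In RNA of whole tissue, fewer cells of a type and less RNA per cell cannot be told apart. Lymphocyte markers had a median of 0.39 over 12 measured, 8 of them (66.7%, against 11.8% of all features) without overlap and above, and none below. At an unadjusted p under 0.05, 8 were higher, against 934 of all 15348 genes with a symbol. Of these 8 markers, 7 did not overlap. Only 8 of the 12 measured were well above background on all 6 arrays, and a dim probe can enter the test through 1 group alone. The median of the list was 0.27 with normexp and quantile normalization. Ms4a1, the B cell antigen CD20, read -3.79, -5.14 and -4.11 in I183M/+, where 1 array was well above background, and -2.68, -2.57 and -1.55 in delta/+ (2.08, adjusted p 0.119), and Cd79b, of the B cell receptor, differed by 0.73 (adjusted p 0.151). The summed level of the list was 12.5 to 12.7 in I183M/+ and 15.5 to 16.1 in delta/+. Cx3cr1, the fractalkine receptor of resident macrophages, differed by 1.35 without overlap (adjusted p 0.177), while the median over 15 macrophage and monocyte markers was 0.05. Tpsb2, a mast cell tryptase, differed by 1.77 without overlap (adjusted p 0.131) and Kit by 0.45 with overlap (adjusted p 0.363). The mast cell markers Cma1 and Cpa3 differed by -0.51 and -0.36, and of the 7 measured 3 were above 0 and 4 below. MHC class II genes had a median of 0.20 over 10 members, and -0.13 with the slide as a term. The part of immune cell number in the interferon values was not tested.

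Of 15 smooth muscle and pericyte markers 7 were above 0 and 8 below, with a median of -0.02. Cnn1, calponin, read 0.66, 0.69 and 1.16 in I183M/+ and 0.36, -0.01 and -0.16 in delta/+ (-0.77, adjusted p 0.175). Myh11 (-0.45), Tagln (-0.50) and Smtn (-0.61) did not overlap either, which makes 4 of 15 below without overlap (26.7%, against 7.07% of all features). Above without overlap was 1 (6.67%, against 11.8%). Fibroblast markers had a median of -0.14 over 16. In 1 member (6.25%, against 7.07% of all features) delta/+ lay below without overlap, the matrix protein gene Dpt (-0.53, adjusted p 0.238). Adipocyte markers had a median of -0.43 over 9, which turned to 0.36 with the slide as a term. Mesothelial and epicardial markers had a median of 0.42 over 13, with Msln at 1.89 (adjusted p 0.379) and Krt18 at 0.68 (adjusted p 0.222), both without overlap. Their median was 0.26 with normexp and quantile normalization, and only 7 of the 13 were well above background on all 6 arrays. Lrrn4 (1.62) entered the test through the delta/+ arrays alone. The I183P/+ array of slide 2 was lower than its partners by a median of 0.61 over this list. The other median differences were 0.05 for 19 endothelial, -0.07 for 7 endocardial, 0.36 for 8 neutrophil, 0.12 for 5 erythroid, 0.04 for 13 Schwann cell and neuron, -0.10 for 7 mast cell and 0.06 for 13 fast skeletal muscle genes. Of 11 lung and thymus markers only 4 were measured, 1 of them well above background on all 6 arrays.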

How the data were processed

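Per the file headers, the authors read the images with Agilent Feature Extraction 11.0.1.1 (protocol GE1_1100_Jul11, mm9 layout), and each deposited scanner file holds spot intensity, corrected for background within the array and not normalized between arrays. The authors also deposited a table of log2 values of the same arrays (array medians 6.89 to 6.94). Per array it correlated at 0.996 to 0.997 (Pearson) with values normalized by normexp and quantiles, its exact steps are not stated, and it served as an alternative.

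Control spots and outlier spots were left out, spots of a probe were averaged, and the log2 of the processed intensity minus each array's 75th percentile was taken. Accessions matched a RefSeq table (GRCm38.p6) for 27235 of 55681 probes. A probe entered the test if 3 or more of the 6 arrays had it well above background, and a gene was read from its brightest such probe. The model was limma 3.58.1 (R 4.3.3) with lmFit and eBayes over 11 arrays, with Benjamini-Hochberg adjustment over all features, and was tested on simulated data. The number of arrays limits the precision. Named were Nkx2-5, up to 15 genes per direction past the threshold without overlap (filled to 12 by smallest p), and up to 3 members of each list by smallest p; other genes were named after their values were seen. The members and lists were chosen with earlier results of these data known. The alternatives were other arrays in the fit, backgrounds, normalizations, dim filters, probe rules and priors, the slide or the replicate number as a block, and leaving out each replicate. A few genes of the lists are counted but not reported here by name.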

Additional observations from a re-analysis of the deposited data

How the results depend on the processing

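The count of features past the threshold (45) was 0 with the 6 arrays alone (3077 at an unadjusted p under 0.05, smallest adjusted p 0.0706), 0 with all 12 arrays (1192, smallest 0.0749), 0 with the slide as a term (2162, smallest 0.272), and 7 with the 9 arrays of the mutant lines. It was 146 with normexp and quantile normalization (35 of the 45 among them), 23 with quantiles of the processed intensity, 102 in the authors' deposited table, 8 with no filter on dim probes, 160 with probes well above background on all 6 arrays, and 314 with a trended robust prior (42 of the 45). It was 55 with the array median as the scale, which moved the median of all features to 0.17, and 42 with the mean of probes. Leaving out 1 replicate gave 0 to 21, and leaving out I183M/+ replicate 1 and delta/+ replicate 2 together, an alternative chosen after seeing the data, gave 6. The Nkx2-5 difference kept its sign throughout. It no longer passed limma's adjusted threshold with 6 arrays (-0.75, adjusted p 0.144), 12 arrays (-0.75, adjusted p 1), the 9 arrays (-0.75, 0.0694), the array median (-0.58, adjusted p 1), no dim filter (-0.75, adjusted p 0.166), the slide as a term (-0.61, 0.426), 1 replicate left out (-0.81 to -0.72, adjusted p 0.0725 to 0.181) or both replicates left out (-0.74, adjusted p 0.16). It passed with normexp (-0.84), quantiles, the deposited table (-0.86), the stricter filter, the mean of probes and the robust prior. With the replicate number as a block the count was 16 and Nkx2-5 differed by -0.75 (adjusted p 0.15). Arrays with the same number did not deviate together (correlations -0.73, -0.54 and -0.07), so the numbers were not taken to pair the samples.

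Of the named genes' values under the alternatives, 2462 kept direction and side of the threshold, 56 newly passed, 139 no longer passed and 16 turned. With the slide as a term, Pde4c turned to -0.087, Adcy5 to 0.043, Adra2b to -0.043, Nrxn3 to -0.013, H2-Ab1 to -0.10, Cytl1 to 0.30, Hbb-b2 to -0.46, Alas2 to -0.32, Dntt to -0.031 and Sftpd to -0.018. Vwf turned to 0.037 with the array median, and Itgam to -0.18 and Mbp to -0.020 with the mean of probes. With 1 replicate left out, Hbb-b2 ranged from -0.16 to 0.54, Hba-a2 from -0.13 to 0.30 and Alas2 from -0.26 to 0.47, each below 0 only without delta/+ replicate 3. The causes were not tested. List medians moved by more than the spread between replicates in 83 of the cases and did not in 717. The interferon median lay between 0.21 and 0.51. Signal over background limits the dimmest genes: over 19410 dim probes the array median ranged from -6.97 to -4.55.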
